A study of Mus musculus with 15 samples.

Results

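The genes described here are 9 genes that handle adenine and other purines, measured in mouse kidneys after a diet rich in adenine. They were chosen by function, as the rows of the expression table whose Ensembl identifier is paired with the symbol Aprt, Hprt, Adk, Ada, Pnp, Nt5e, Gda, Xdh or Abcg2 by the mouse annotation GENCODE M21 (GRCm38), and they are 9 of the 54532 genes listed. One kidney each of 15 male C57BL/6 mice was sequenced, 5 per group, and the mice were 8 weeks old when the experiment started. The control group (C) ate normal chow, the CKD model group (M) ate chow with 0.25% adenine for 4 weeks, which injures the kidney, and the AA group ate the same adenine chow and received asiatic acid (AA), a triterpene of Centella asiatica, at 30 mg/kg by gavage every day. All mice ate standard chow from then on to week 8, with AA continued in the AA group, and C and M mice received the vehicle (1% DMSO in saline). The kidneys were thus taken 4 weeks after the last adenine, and no group received AA without adenine.

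Purines are made new from small precursors or recovered from bases and nucleosides by salvage. Aprt joins free adenine to a ribose phosphate and yields AMP, while adenine that escapes it is oxidised by Xdh to 2,8-dihydroxyadenine, whose crystals form in the tubules. Adenosine is released from AMP by Nt5e, then phosphorylated by Adk or deaminated by Ada to inosine. Pnp frees hypoxanthine and guanine from their nucleosides, and Hprt salvages both bases back to nucleotides. On the route to urate, Gda deaminates guanine to xanthine, and Xdh oxidises hypoxanthine and xanthine to urate. Abcg2 helps to export urate.

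Values are in FPKM (fragments scaled to the length of the gene and to the library), so that levels can be set side by side between genes, and values of a group are listed in the order of mouse number from 1 to 5. The libraries held from 2077644 to 13576620 fragments outside the mitochondrial genome, as recovered from the smallest steps between FPKM values, which cannot fix a factor of 2. From 19864 to 25251 genes were above 0 in C libraries, 18695 to 22355 in AA libraries, 23040 and 25460 in M mice 4 and 5, and only 11551, 10068 and 12222 in M mice 1, 2 and 3, so results are also given for M mice 4 and 5 alone. The mitochondrial share of fragments was 53.0 to 62.5% (C), 64.0 to 86.8% (M) and 69.2 to 87.2% (AA). Kidney markers were present, and the summed FPKM of 12 proximal tubule genes was 3075 to 12691 (C), 93.8 to 544 (M) and 172 to 575 (AA). Most of that sum came from Kap, at 2779 to 10538 (C), 81.2 to 500 (M) and 126 to 486 (AA). The summed FPKM of 7 macrophage and leukocyte genes was 23.5 to 215, 173 to 398 and 124 to 215 in the same order, mostly from Lyz2 and Cd74. In whole kidney, fewer cells of a type and less RNA per cell cannot be told apart.

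Few of the 9 genes passed the test of differential expression, in which limma had to give an adjusted p of 0.05 or less and a difference of 1 or more on the log2(FPKM + 1) scale. All 9 were tested in every comparison. In M vs. C, 0 of 9 were called, where 1.38% of 21153 genes were, and 4 of the 9 (Aprt, Hprt, Gda and Abcg2) had an unadjusted p under 0.05, as 16.5% of genes did. In AA vs. M, 0 of 9 were called beside 12.8% of 19798 genes, and Pnp and Nt5e had an unadjusted p under 0.05, as 32.1% of genes did. Limma voom on the recovered fragments also called 0 of 9 in both comparisons, beside 496 of 21144 and 3971 of 19791 genes. In AA vs. C, Aprt and Abcg2 fell, beside 19.8% of 21898 genes called in either direction, and Pnp passed the adjusted p without reaching the fold, as 35.9% of genes passed the adjusted p at any fold. The values of the groups did not overlap for Gda and Abcg2 in M vs. C (4.72% of all genes), for Pnp in AA vs. M (13.2%) and for Aprt, Pnp and Abcg2 in AA vs. C (24.0%). The median log2 fold change of all genes was −0.12 in M vs. C, 0.17 in AA vs. M and 0.09 in AA vs. C. It moved to −0.58, 0.12 and −0.39 with libraries scaled to one total that includes the mitochondrial genes (TPM). With libraries centred on their medians it was 0.24, −0.35 and −0.06. Of the genes called, 19.6%, 91.6% and 51.6% were higher, against 1.93%, 98.3% and 12.7% in TPM and 38.9%, 43.1% and 40.1% after centring, and 27.8% in AA vs. M with M mice 4 and 5 alone.

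**Figure D1:**
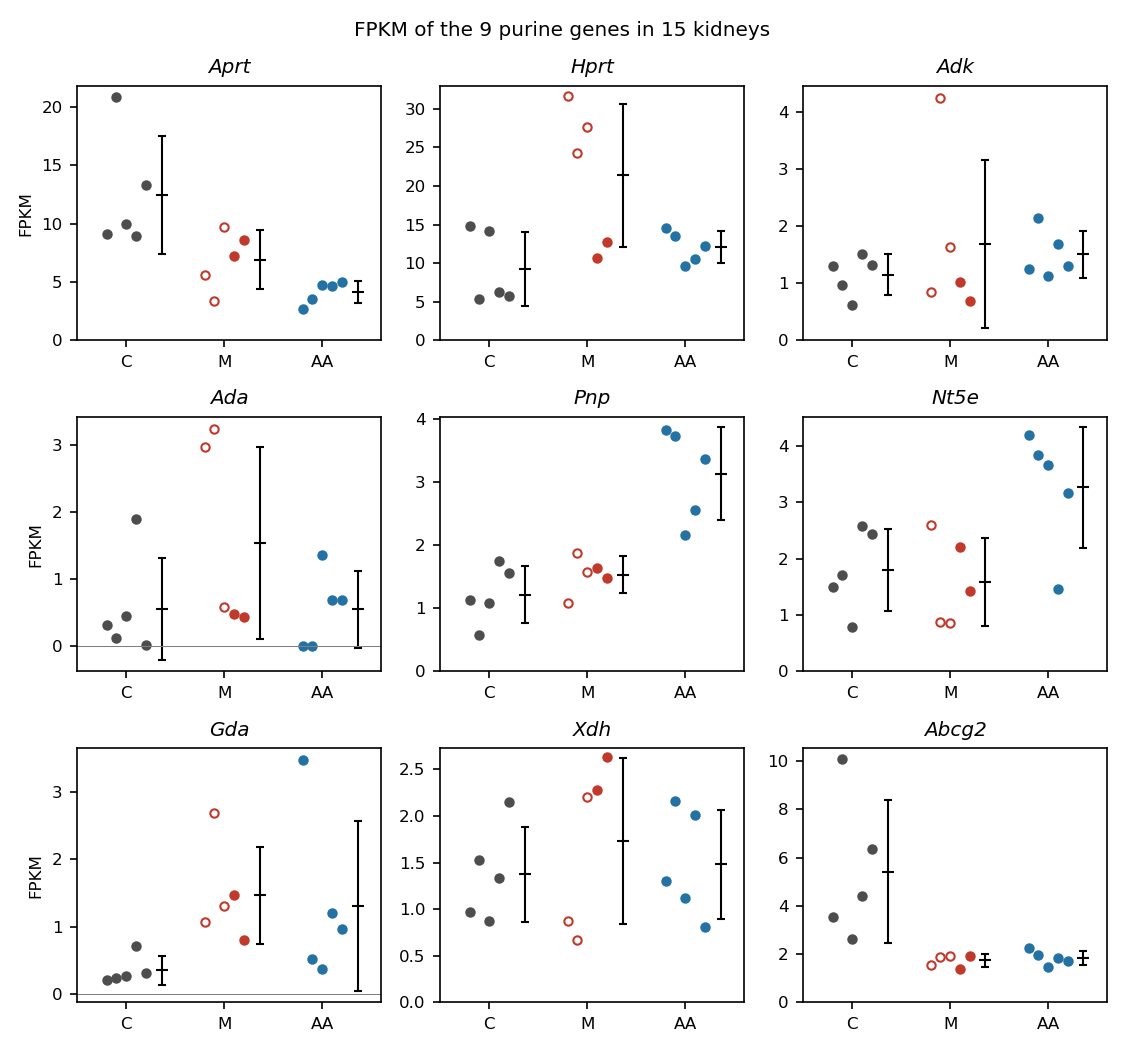
FPKM (vertical axes, linear) of the 9 genes in the 15 kidneys, by group on the horizontal axes, with M mice 1 to 3 as open points and the mean ± SD (n = 5) as a black bar to the right of each group. Abcg2 sits between 1.37 and 2.25 in every M and AA mouse and at 2.64 or above in every C mouse, and Pnp is at 2.16 or above in every AA mouse.

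**Figure D2:**
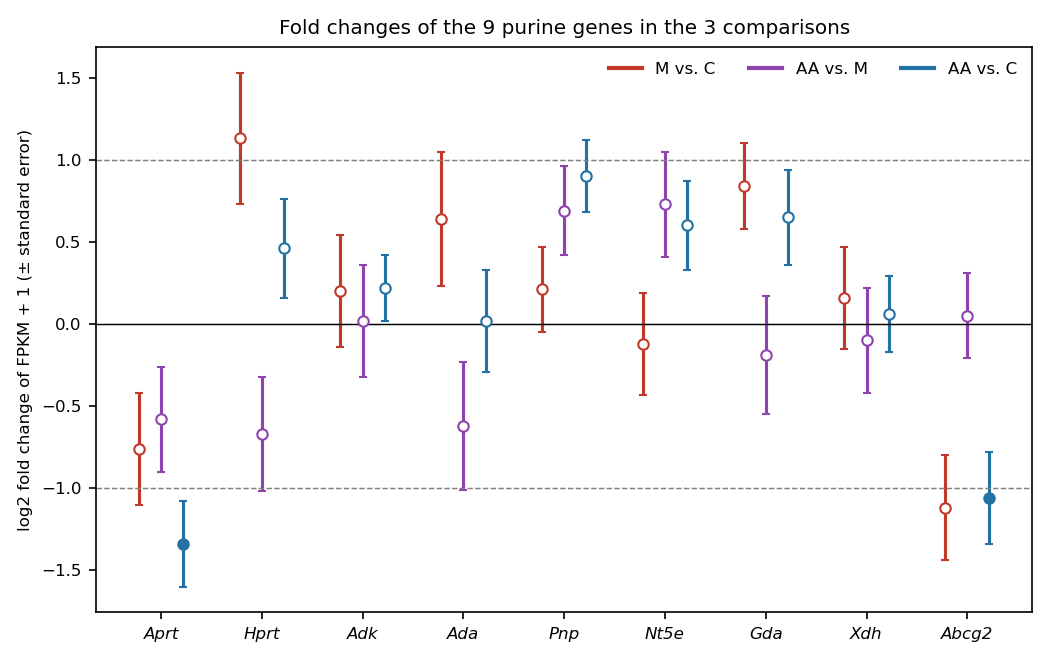
The log2 fold change of FPKM + 1 (vertical axis, ± standard error) of the 9 genes in all 3 comparisons (5 mice per group), with filled points for genes that passed the test and dashed lines at the fold threshold. The filled points are Aprt (−1.34) and Abcg2 (−1.06), both in AA vs. C.

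The promoters of Aprt and Hprt, the 2 genes that salvage free bases, and of Abcg2 are shown because Aprt and Abcg2 are the 2 genes that passed the test and Hprt stands beside Aprt in salvage. Each line is the 250 bases before a RefSeq start (GRCm38.p6), 5′ to 3′ on the strand of the gene, at chr8:122576908-122577157 on the minus strand for Aprt, chrX:52987828-52988077 on the plus strand for Hprt and chr6:58640296-58640545 on the plus strand for Abcg2, which has 3 such windows. The Abcg2 window shown ends at a GENCODE M21 transcript start, and those of Aprt and Hprt do not. Capitals mark the GC box, GGGCGG on either strand.
Aprt: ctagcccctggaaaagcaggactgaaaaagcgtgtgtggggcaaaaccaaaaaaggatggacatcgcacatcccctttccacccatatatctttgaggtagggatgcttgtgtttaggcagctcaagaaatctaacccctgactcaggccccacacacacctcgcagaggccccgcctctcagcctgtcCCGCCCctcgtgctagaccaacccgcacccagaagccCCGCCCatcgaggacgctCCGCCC
Hprt: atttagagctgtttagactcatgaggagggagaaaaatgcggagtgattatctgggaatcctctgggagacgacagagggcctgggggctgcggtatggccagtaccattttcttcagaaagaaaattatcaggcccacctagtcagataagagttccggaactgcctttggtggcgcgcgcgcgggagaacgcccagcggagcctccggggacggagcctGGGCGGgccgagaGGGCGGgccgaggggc
Abcg2: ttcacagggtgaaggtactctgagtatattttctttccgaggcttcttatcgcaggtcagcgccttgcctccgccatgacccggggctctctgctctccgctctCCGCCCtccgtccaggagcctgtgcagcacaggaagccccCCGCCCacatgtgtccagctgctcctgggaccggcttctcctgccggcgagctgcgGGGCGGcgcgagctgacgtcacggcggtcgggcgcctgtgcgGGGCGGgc
The Aprt window held 3 GC boxes and the Hprt window 2, and the Abcg2 window held 4, while GGGCGG occurred in 32.7% of 32851 such windows of all genes. None of the 3 held CCAAT (33.8% of windows) or TATAAA (12.4%) on either strand. GC content was 58.4% for Aprt, 59.6% for Hprt and 67.6% for Abcg2, against a median of 52.4% of all windows. The Abcg2 windows not shown held 0 and 2 GC boxes, with a GC content of 51.2% and 50.0%. The table holds windows for 8 of the 9 genes, and such matches are descriptions of the letters only.

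Aprt (ENSMUSG00000006589, chromosome 8, 122574635 to 122576909, minus strand), the enzyme that salvages adenine itself, was lowest in the AA group. The C mice were at 9.12, 20.9, 10.001, 8.95 and 13.3 FPKM. The M mice were at 5.60, 3.38, 9.76, 7.20 and 8.65 and the AA mice at 2.73, 3.57, 4.79, 4.63 and 5.00. All AA mice lay below all C mice, 4 of 5 M mice lay below all C mice, and the M and AA ranges overlapped. In AA vs. C, Aprt fell by 1.34 on the log2 scale (SE 0.26, adjusted p = 0.00288 in limma), a 2.53-fold change, and it passed in all 21 alternatives, with log2 fold changes from −2.40 to −1.15. In M vs. C the log2 fold change was −0.76 (SE 0.34, adjusted p = 0.276 in limma), and −0.53 with mice 4 and 5 as the only M libraries, and in AA vs. M it was −0.58 (SE 0.32, adjusted p = 0.237 in limma). In TPM the M vs. C value was −1.73 (adjusted p = 0.0385 in limma), and after centring on library medians the AA vs. M value was −1.09 (adjusted p = 0.0389 in limma), both of which passed. The values rest on 52 to 1360 recovered fragments per library. Summed proximal tubule markers were below the C range in the same M and AA libraries, and their part in the Aprt values was not tested.

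Hprt (ENSMUSG00000025630, chromosome X, 52988137 to 53021659), which salvages hypoxanthine and guanine, was the most abundant of the 9 in the M and AA groups. The C mice were at 14.8, 5.40, 14.2, 6.23 and 5.75 FPKM. Those of the M group were at 31.6, 24.3, 27.6, 10.7 and 12.7 FPKM. The AA mice were at 14.6, 13.5, 9.62, 10.6 and 12.2. M mice 1 to 3 lay above every other mouse, whereas M mice 4 and 5 lay within the range of the C and AA mice. Its M vs. C difference was 1.13 (SE 0.40, adjusted p = 0.190 in limma), and it did not pass. With M mice 1 to 3 alone it was 1.60 (adjusted p = 0.0122 in limma) and passed, and with M mice 4 and 5 alone it was 0.42 (adjusted p = 0.796 in limma). In TPM it was 0.19. Against the C group the AA mice differed by 0.46 (SE 0.30, adjusted p = 0.247 in limma), and by −0.57 in TPM. The AA vs. M value was −0.67 (SE 0.35, adjusted p = 0.206 in limma), −1.14 with mice 1 to 3 as the only M libraries (adjusted p = 0.00792 in limma) and 0.04 with mice 4 and 5 as the only M libraries. M mice 1 to 3 are the libraries with the fewest genes above 0, and the part of this in the Hprt values was not tested.

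Of the genes that make and use adenosine, Nt5e was measured at 0.789 to 4.19 FPKM and Adk at 0.614 to 4.25, while Ada was near the limit of the data. Nt5e (ENSMUSG00000032420, chromosome 9, 88327197 to 88372092), the ectoenzyme that releases adenosine from AMP outside the cell, was at 1.5021, 1.71, 0.789, 2.58 and 2.43 FPKM in the C mice. The M mice were at 2.59, 0.879, 0.856, 2.20 and 1.42, and the AA mice at 4.19, 3.84, 3.66, 1.47 and 3.17. The AA mice other than mouse 4 lay above all M and all C mice. The log2 fold change was 0.73 in AA vs. M (SE 0.32, adjusted p = 0.136 in limma) and 0.60 in AA vs. C (SE 0.27, adjusted p = 0.0954 in limma), and neither passed. In limma voom on the recovered fragments the AA vs. C value was 1.01 (adjusted p = 0.0254) and passed, as did 7868 of 21888 genes. In TPM the AA vs. C value was −0.18.

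Adk (ENSMUSG00000039197, chromosome 14, 21052574 to 21448569), which returns adenosine to AMP, passed no test, with 0.614 to 1.52 FPKM in C mice, 0.688 to 4.25 in M mice and 1.13 to 2.15 in AA mice. One library, M mouse 2 at 4.25 FPKM, lay far above the rest, and the log2 fold changes were 0.20 for M against C, 0.02 for AA against M and 0.22 for AA against C, with standard errors of 0.34, 0.34 and 0.20 and limma adjusted p of 0.774, 0.977 and 0.401. Ada (ENSMUSG00000017697, chromosome 2, 163726584 to 163750239), which deaminates adenosine to inosine, was at 0.311, 0.112, 0.451, 1.89 and 0.0149 FPKM in the C mice. The M mice were at 2.97, 3.25, 0.588, 0.477 and 0.432, and it was listed at 0 in AA mice 1 and 2, and 1.36, 0.680 and 0.682 in AA mice 3 to 5. M mice 1 and 2 alone were above the C range. At most 128 recovered fragments stood behind any value, and C mouse 5 rests on 1. The log2 fold change of Ada was 0.64 in M vs. C (SE 0.41, adjusted p = 0.457 in limma), 0.01 with mice 4 and 5 as the only M libraries, and −0.62 in AA vs. M (SE 0.39, adjusted p = 0.301 in limma).

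Pnp (ENSMUSG00000115338, chromosome 14, 50931082 to 50965237), the phosphorylase that frees hypoxanthine and guanine from their nucleosides, was highest in the AA group. The C mice were at 1.13, 0.581, 1.08, 1.74 and 1.55 FPKM. Those of the M group were at 1.08, 1.88, 1.57, 1.63 and 1.48 FPKM. The AA mice were at 3.82, 3.73, 2.16, 2.55 and 3.36. Every AA mouse lay above every C and every M mouse, and the C and M ranges overlapped. For AA vs. C the log2 fold change was 0.90 (SE 0.22, adjusted p = 0.00824 in limma), under the fold threshold, and 1.34 with a pseudocount of 0.1 (adjusted p = 0.0112 in limma), which passed, as did TPM without mitochondrial genes and voom. Over all genes these settings called 7474 of 21898, 7190 of 21882 and 7868 of 21888 in AA vs. C. In TPM the Pnp value was 0.22 (adjusted p = 0.603 in limma), so that the size of this difference depends on the scaling. The AA vs. M value was 0.69 (SE 0.27, adjusted p = 0.0912 in limma), and in M vs. C 0.21 (SE 0.26, adjusted p = 0.698 in limma). The Pnp interval holds its paralog Pnp2 and Gm49342 on the same strand, and 26.4% of its 31-base words occur in other genes. Gm49342 was listed at 0 in all 15 libraries and Pnp2 in 13 of them, with 0.0949 and 0.113 FPKM in C mice 3 and 5, so reads of these genes, if any, could be split or left uncounted.

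Gda (ENSMUSG00000058624, chromosome 19, 21391307 to 21473445), which deaminates guanine to xanthine, was low in the C group, at 0.208, 0.243, 0.267 and 0.317 FPKM in 4 mice and 0.718 in C mouse 4. The M mice were at 1.07, 2.68, 1.30, 1.47 and 0.809, and the AA mice at 3.48, 0.524, 0.369, 1.20 and 0.962. All M mice lay above all C mice, and the AA mice overlapped both groups. Its M vs. C difference was 0.84 (SE 0.26, adjusted p = 0.132 in limma), and 0.66 with mice 4 and 5 as the only M libraries (adjusted p = 0.244 in limma), and it did not pass. Its AA vs. C difference was 0.65 (SE 0.29, adjusted p = 0.0956 in limma), and 0.37 without AA mouse 1. In limma voom on the recovered fragments the AA vs. C value was 1.85 (adjusted p = 0.0243) and passed, as did 7868 of 21888 genes. The summed macrophage and leukocyte markers were 23.5 to 215 FPKM in C mice (median 40.3) against 173 to 398 in M mice (median 319). Of these 7 markers, 1 was called in M vs. C (Lyz2, 4.32), and Csf1r had a value of −1.01. The part of these cells in the Gda values was not tested.

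Xdh (ENSMUSG00000024066, chromosome 17, 73883895 to 73950196), the oxidase that turns hypoxanthine to urate and adenine to 2,8-dihydroxyadenine, passed no test, and the ranges of the 3 groups overlapped. It was at 0.878 to 2.15 FPKM in C mice, 0.668 to 2.63 in M mice and 0.812 to 2.16 in AA mice. The log2 fold changes were 0.16 for M against C (SE 0.31), −0.10 for AA against M (SE 0.32) and 0.06 for AA against C (SE 0.23), with limma adjusted p of 0.808, 0.867 and 0.858. In the M group, M mice 1 and 2 were below all C mice and M mice 3 to 5 above all of them. Of its 31-base words, 14.4% occur in other genes.

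Abcg2 (ENSMUSG00000029802, chromosome 6, 58584523 to 58695676), a pump of the apical membrane that exports urate, was lower in both adenine-fed groups. The C mice were at 3.52, 10.1, 2.64, 4.42 and 6.35 FPKM. The M mice were at 1.57, 1.89, 1.94, 1.37 and 1.93, and the AA mice at 2.25, 1.96, 1.47, 1.82 and 1.72. All 10 M and AA mice lay below all C mice, and the M and AA ranges overlapped. In AA vs. C, Abcg2 fell by 1.06 on the log2 scale (SE 0.28, adjusted p = 0.0130 in limma), a 2.09-fold change. Without C mouse 2 the change was −0.84 and without C mouse 5 −0.99, both under the fold threshold. In M vs. C it was −1.12 (SE 0.32, adjusted p = 0.109 in limma), which did not pass, and −1.17 with mice 4 and 5 as the only M libraries (adjusted p = 0.297 in limma). It passed with all 15 libraries in one fit (adjusted p = 0.0280 in limma), with M mice 1 to 3 alone (adjusted p = 0.0476 in limma) and in TPM, where it was −2.05 (adjusted p = 0.0103 in limma). The AA vs. M value was 0.05 (SE 0.26, adjusted p = 0.913 in limma), and −0.46 after centring on library medians. Both comparisons with the C group share its 5 libraries. The proximal tubule markers fell in the same libraries, with 8 of 12 called lower in M mice and 9 of 12 in AA mice against C, and 6 of the 12 listed at 0 in at least 1 M mouse. Their part in the Abcg2 values was not tested.

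**Figure D3:**
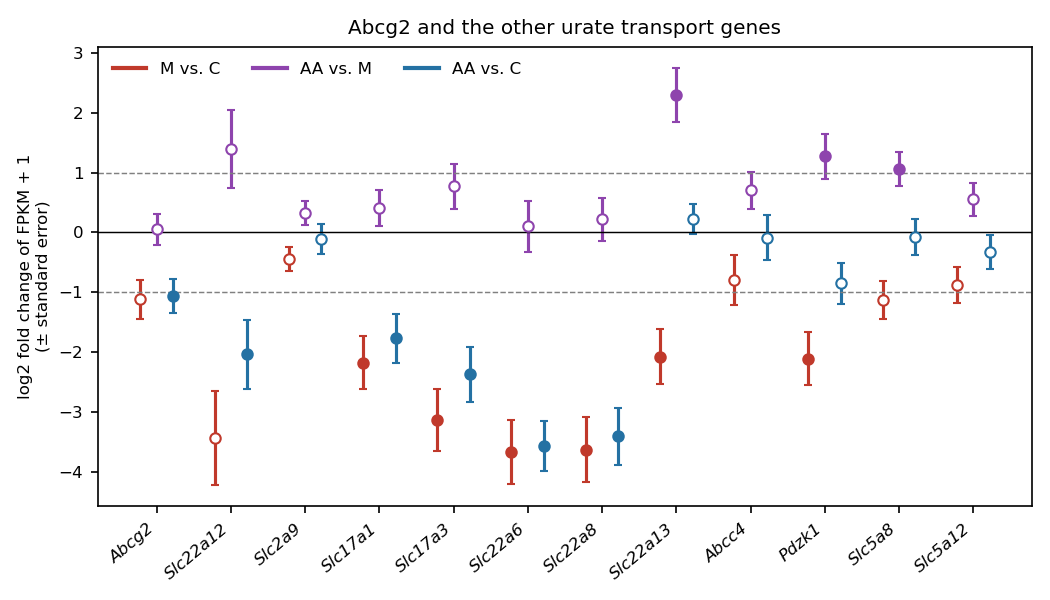
The log2 fold change of FPKM + 1 (vertical axis, ± standard error) of Abcg2 and 11 other urate transport genes in the 3 comparisons (5 mice per group), with filled points for genes that passed the test and dashed lines at the fold threshold. All 12 genes are below 0 in M vs. C and above 0 in AA vs. M, where Abcg2 stands at 0.05 (−0.46 after centring on library medians, when 4 of the other 11 were below 0 as well).

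Of 11 other genes listed under urate transport, not all urate carriers, 6 fell in M vs. C (1.38% of all genes were called). All 11 had a log2 fold change below 0, in every alternative in which they were tested, with a median of −2.11 beside −0.12 over all genes. The count of calls was 0 without C mouse 5, from 1 to 3 without M mouse 1, 2 or 3, and 3 without C mouse 2 or C mouse 4. Those that fell were Slc22a6 (−3.67) and Slc22a8 (−3.63), organic anion carriers of the basolateral membrane, Slc17a3 (−3.14) and Slc17a1 (−2.18), phosphate family transporters of the apical membrane, the scaffold Pdzk1 (−2.11) and Slc22a13 (−2.08). All 11 were above 0 in AA vs. M, with a median of 0.70 beside 0.17 over all genes, but 4 of the 11 were below 0 after centring on library medians and 2 with M mice 4 and 5 alone. In this comparison 3 of the 11 rose beside 12.8% of all genes called, namely Slc22a13 (2.30), Pdzk1 (1.27) and Slc5a8 (1.06), a monocarboxylate carrier. The count was 0 in TPM and 1 after centring. Slc22a13 was at 0.775, 0, 0, 3.63 and 3.11 FPKM in the M mice and at 6.36 to 10.9 in the AA mice. Against the C group, 5 of the 11 fell in AA mice beside 19.8% of all genes called, Slc22a6 (−3.57), Slc22a8 (−3.41), Slc17a3 (−2.37), Slc22a12 (−2.04), the urate reabsorber URAT1, and Slc17a1 (−1.77). Slc22a6, Slc22a8 and Slc5a12 are also on the proximal tubule marker list. With M mice 4 and 5 alone in M vs. C, 0 of the 11 were called, as were 0 of all 20868 genes tested in limma (2489 had an unadjusted p under 0.05), and their median was −1.27.

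Within a kidney, the log2 ratio of a gene pair does not depend on how the library was scaled, apart from the pseudocount of 1, and 6 pairs that share or exchange substrates were compared in 18 exact permutation tests. Aprt over Xdh, adenine salvage against adenine oxidation, was 2.46 ± 0.40 (C), 1.54 ± 0.23 (M) and 1.06 ± 0.51 (AA) as log2 mean ± SD of 5 mice each. The C mice gave 2.36, 3.11, 2.55, 2.09 and 2.19, the M mice 1.82, 1.39, 1.75, 1.32 and 1.41, and the AA mice 0.69, 0.53, 1.45, 0.91 and 1.73. With the pseudocount of 1, every C mouse was above every M and AA mouse. Without it, C mouse 5 (Aprt 13.3, Xdh 2.15 FPKM) would lie below M mouse 1 (Aprt 5.60, Xdh 0.873 FPKM). The separation of C from M thus depends on the pseudocount. The difference from C was −0.92 for the M mice and −1.40 for the AA mice, each with a two-sided exact permutation p of 0.00794, the smallest that 5 against 5 mice can give, and 0.0476 adjusted over the 18 tests. With mice 4 and 5 as the only M libraries, the M vs. C difference was −1.09 (adjusted p = 0.286, exact permutation test). The smallest exact permutation p that 2 against 5 mice can give is 0.0476. Adjustment over the 18 tests then leaves almost no room to pass, so this test could not decide.

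Pnp over Hprt, release of bases against their salvage, was −1.69, −1.62, −1.75, −1.71 and −1.60 in the AA mice, a narrow range beside −3.97, −3.14, −3.48, −2.15 and −2.46 in the M mice and −2.89, −2.02, −2.87, −1.40 and −1.40 in the C mice. Every AA mouse was above every M mouse. The difference in AA vs. M was 1.37 (two-sided exact permutation p = 0.00794, adjusted p = 0.0476), and it was 0.63 with mice 4 and 5 as the only M libraries. The other 15 tests did not pass. Among them, Hprt over Xdh differed by 0.97 in M vs. C (two-sided exact permutation p = 0.159, adjusted p = 0.429), and Adk over Ada by 0.64 and Nt5e over Adk by 0.71 in AA vs. M (exact permutation p = 0.222 and 0.206, adjusted p = 0.444 each). The 3 adjusted values rest on all 3 tests reaching the smallest p, and none passed once any C mouse, or any AA mouse other than mouse 4, was left out.

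**Figure D4:**
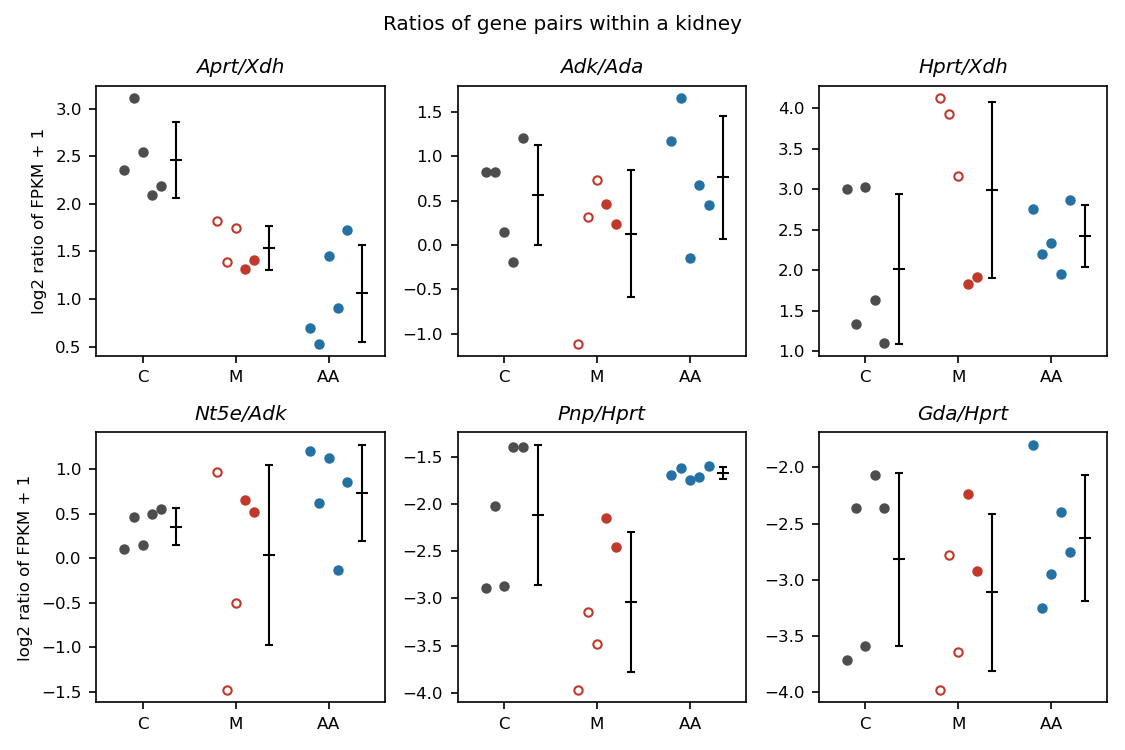
The log2 ratio of FPKM + 1 (vertical axes) of 6 gene pairs in each kidney, by group, with M mice 1 to 3 as open points and the mean ± SD (n = 5) as a black bar. Aprt over Xdh is 2.09 or above in every C mouse and 1.82 or below in every M and AA mouse, and Pnp over Hprt lies between −1.75 and −1.60 in the AA mice.

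Purine genes with other roles were taken from a list of the pathway. Of 73 other purine genes found in the table, 70 were tested in M vs. C, where 8 fell and none rose (11.4% beside 1.38% of all genes). They were the 6 urate transport genes, Alpl (−2.21), the phosphatase of the brush border, and Entpd5 (−1.74), a nucleoside diphosphatase. In AA vs. M, 5 of 69 rose and 2 fell (10.1% beside 12.8%), but the calls were 0 in TPM, 1 higher and 5 lower after centring on library medians, and 1 higher and 3 lower of 67 with M mice 4 and 5 alone. Beside the urate transport genes these were Ak4 (1.56), a mitochondrial adenylate kinase, the adenosine receptor Adora1 (1.29), and the nucleotidases Nt5c (−1.51) and Nt5c3b (−1.20). Nt5c was 7.22 to 21.6 FPKM in M mice against 2.19 to 4.03 in AA mice, and these ranges did not overlap. In AA vs. C, 13 of 70 fell and 1 rose (20.0% beside 19.8%). Those beside urate transport were the AMP deaminases Ampd3 (−1.62) and Ampd2 (−1.02), Gmpr (−1.10), Prpsap1 (−1.20), Nt5c2 (−1.23), Alpl (−1.65), the nucleoside carriers Slc29a2 and Slc28a1 (−1.15 each), and the receptor Adora2b (1.09), which rose. Of the 10 genes of de novo synthesis, 0 were called in M vs. C beside 1.38% of all genes, 0 in AA vs. M beside 12.8%, and 1 (Prpsap1) against the C group in AA mice beside 19.8%.

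By median FPKM the order in the C group was Aprt (10.001), Hprt (6.23), Abcg2 (4.42), Nt5e (1.71), Xdh (1.33), Adk (1.31), Pnp (1.13), Ada (0.311) and Gda (0.267), and of neighbours in this order the ranges of Abcg2 and Nt5e alone did not overlap. In the M group it began with Hprt (24.3), Aprt (7.20), Xdh (2.20) and Abcg2 (1.89), and in the AA group with Hprt (12.2), Aprt (4.63), Nt5e (3.66) and Pnp (3.36). Hprt was above Aprt in every M and every AA mouse, and in 2 of 5 C mice. Of 7207 genes above 0 in all 15 libraries, those most like Abcg2 were Slc17a1, Glyat and Vwa8 (Pearson r of 0.943, 0.940 and 0.938 over 15 libraries, across the groups). Those most like Aprt were Atad3a (0.946), Pi4k2a (0.944) and Exosc5 (0.929), and those most like Hprt were Tmsb4x (0.912), Fam49b (0.883) and Sept7 (0.882). Pnp was followed by Gm10110 (0.927), Creb5 (0.912) and Alyref (0.910), Nt5e by Macrod2 (0.916) and Pabpc4 (0.907), and Gda by Tifa (0.921), Plek (0.853) and Fubp3 (0.837). Adk was most like Prnp (0.906), Rps13 (0.877) and Arsb (0.875), Ada most like Rpl35a (0.883), Brk1 (0.874) and Rps23 (0.859), and Xdh most like Sos1 (0.767), Vps50 (0.764) and St5 (0.744). These libraries share depth and group differences, and the values are descriptions. Among the 9 genes, Aprt and Abcg2 had r of 0.75 and Aprt and Pnp −0.81.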

How the data were processed

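Poly-A RNA of 15 mouse kidneys, 5 per group by their labels, was sequenced in paired reads of 150 bases. Per the labels, the authors trimmed reads with fastp, aligned them with HISAT2 2.0.5, counted fragments with featureCounts 1.5.0-p3 and deposited FPKM per gene. The annotation is not given in the sources used here. Counts were not used here, so the DESeq2 analysis of the authors was not repeated. Genes were matched by identifier to GENCODE M21, which held 54495 of them.

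Limma 3.58.1 (R 4.3.3) was run on each pair of groups with moderated variances that follow expression, on log2(FPKM + 1). A gene was tested if 5 or more of the 10 libraries held a value above 0. P-values were adjusted by Benjamini-Hochberg over every tested gene, with calls made at 0.05 and a log2 difference of 1 or more, higher or lower. The pseudocount of 1 understates changes of low genes. Ratios used two-sided exact permutation tests. Fragments were recovered by dividing FPKM by its smallest step, where 97.4 to 98.7% of low values were whole within 0.02. By this measure the totals were 0.435 to 1.93 times the divisor of the FPKM values. The unit is thus not strictly scaled to the library total. This ratio was lowest in C mouse 3, the library with the lowest mitochondrial share (53.0%). It was highest in AA mouse 2, with the highest share (87.2%). TPM divides by the FPKM sum with mitochondrial genes included. That sum was 263859 to 463739 in C, 412144 to 1171211 in M and 460489 to 1481916 in AA libraries. The code was run on simulated data drawn from the C libraries alone. That run cannot show how the fits behave on the M libraries with few genes above 0. Sequences are from RefSeq (GRCm38.p6). Python 3.11.15 with numpy 2.4.6 and pandas 2.3.3 was used.

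The 9 genes, the pathway and marker lists and the tests were chosen with earlier results of these data known. The genes named are the 9, Pnp2, list genes that were called (at most 4 per role and comparison, with the remaining urate transport genes and Csf1r added after their values were seen) and the 3 genes most like each of the 9, of which 1 is not reported here. Replicate numbers were checked for pairing, and correlations of same-numbered deviations ranged from −0.127 to 0.218, so the main fits have no block. Alternatives were a pseudocount of 0.1, filters, TPM, TPM without mitochondrial genes, centring, quantile normalization, a joint fit of all 15 libraries, weights for library quality, a replicate block and the removal of each library in turn. Limma voom on recovered fragments and fits with M mice 4 and 5 only or M mice 1 to 3 only were added after the data were seen.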

Additional observations from a re-analysis of the deposited data

Results flagged for a closer look

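Gda in C mouse 4 stood apart from the other C mice. Its FPKM was 0.718, where the others were 0.208 to 0.317, and the gap to the nearest divided by the range of the group on the log2(FPKM + 1) scale was 0.755, above Dixon's critical value of 0.71 for 5 samples. It was 1 of 27 groups of values examined, and chance gives such a gap in about 1 of 20. All M mice were still above C mouse 4. For Lyz2, C mouse 4 was at 49.6 FPKM and the other C mice at 2.63 to 7.12. C mouse 4 was also the highest C mouse for Cd74 (153 FPKM), Ptprc (1.44), Adgre1 (1.26) and Itgam (0.565). For Cd68, at 2.82 FPKM, it was within the range of the other C mice, and for Csf1r it was the lowest, at 6.92 FPKM. The part of leukocytes in its Gda value was not tested.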

How the results depend on the processing

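For the 9 genes, the calls were 0 in M vs. C, 0 in AA vs. M and 2 in AA vs. C. In M vs. C, TPM called 2 (Aprt and Abcg2), all 15 libraries in one fit 1 (Abcg2) and M mice 1 to 3 only 2 (Hprt and Abcg2). Over all genes these settings called 1609 of 21153, 786 of 21153 and 3404 of 17103. In AA vs. M, centring on library medians called 1 (Aprt) and M mice 1 to 3 only 1 (Hprt), beside 2813 of 19798 and 3744 of 16761 genes. In AA vs. C, limma voom on recovered fragments called 5 (Aprt, Pnp, Nt5e, Gda and Abcg2), beside 7868 of 21888 genes. With 1 library left out, the calls ranged from 0 to 0, from 0 to 0 and from 1 to 2. Without C mouse 2 or C mouse 5, Aprt was the only call in AA vs. C. The replicate block changed no call of the 9 genes in these fits. Of the 3 ratio tests that passed, 0 passed with the replicate block, whose smallest p is 0.0625. With M mice 4 and 5 only or M mice 1 to 3 only 0 passed, and with 1 library left out from 0 to 3. The smallest exact permutation p of 2 against 5 mice is 0.0476. So few M mice leave little or no room to pass after adjustment over 18 tests, and these splits could not decide. The AA vs. C test keeps its libraries in these splits, and only its adjustment changed. Of the 27 log2 fold changes, 13 kept their sign in every alternative. Among the other 14, Nt5e in AA vs. C (1.01 in voom, −0.18 in TPM) and Hprt in AA vs. M (−1.14 with M mice 1 to 3 only, 0.04 with M mice 4 and 5 only) passed in 1 alternative and had the other sign in another.

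Over all genes, the 291 calls of M vs. C became 33 without a filter, 448 at a mean FPKM of at least 1, 1609 in TPM, 786 with all libraries, 188 with quality weights, 152 with the replicate block, 496 in voom, 0 with M mice 4 and 5 only, 3404 with M mice 1 to 3 only and 4 to 954 with 1 library left out. The 2533 calls of AA vs. M became 422 in TPM, 3971 in voom and 1656 with M mice 4 and 5 only, of which 27.8% were higher beside 91.6%, and the 4346 of AA vs. C became 7474 with a pseudocount of 0.1, 6785 in TPM, 7190 in TPM without mitochondrial genes and 7868 in voom. For the other purine genes, the 8 calls of M vs. C ranged from 0 to 18, the 7 of AA vs. M from 0 to 12 and the 14 of AA vs. C from 12 to 27 over the alternatives. The cause was not tested. The Ada values rest on 0 to 128 recovered fragments per library.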
